A study of Mus musculus with 6 samples.

Results

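Serine protease inhibitors of the serpin and Spink families were examined in top lip tissue of adult female mice. The 72 gene symbols of the count data that begin with Serpin or Spink were taken, and the 35 with a CPM (gene count per 1000000 counts of the library) of 1 or more in 3 or more libraries were kept as members, of 15009 such genes among 26814 symbols. They comprised 16 serpins of clade B, 14 serpins of the secreted clades A, E, F, G and I, the endoplasmic reticulum serpin Serpinh1 and 4 Spink genes. None of the 35 passed through the libraries of 1 genotype alone: for each, at least 1 library of both genotypes reached the limit. Clade was read from the letter after the word Serpin, and the clade B genes were compared with the secreted clades.

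RNA-Seq had been carried out on 3 homozygous Gtf2ird1tm1Hrd knockout mice (KO) and 3 wild type mice (WT) of the C57BL/6J background, with 1 library from the whole top lip of each mouse. The mutation is carried in the germline and so in all cell types, without a Cre or a transgene promoter. Total gene counts were 20164081 to 29491767 per library, so that 3 counts, the limit that a count of 0 allows, stood for 0.0986 CPM in the deepest and 0.154 CPM in the shallowest library, as counting error only. The targeted gene did not fall: Gtf2ird1 had 78.2, 70.2 and 70.7 CPM in WT1, WT2 and WT3 and 166, 162 and 144 CPM in KO1, KO2 and KO3 (log2 fold change 1.11, standard error 0.13, adjusted p = 0.0018 by edgeR's quasi-likelihood test). Gene counts do not separate reads of a targeted allele from reads of an intact one, and directions are therefore given for the libraries labelled KO. KO3 lay inside the WT range for 39.9% of the genes tested, against 23.9% for KO1 and 26.7% for KO2. Of marker lists for 16 cell types, the summed CPM of 2 (suprabasal and wound keratinocytes) was higher in all KO than in all WT libraries. That of 6 (hair follicle, skeletal muscle, adipocyte, mast cell, Schwann cell and sebocyte) was lower, and that of 8 overlapped between the genotypes. Of the 10 suprabasal markers, 1 was higher and 1 lower at a quasi-likelihood adjusted p under 0.05. Basal keratinocyte markers, which define the epithelium of the lip, summed to 10204 to 12054 CPM in every library. In whole tissue, fewer cells of a type and less RNA per cell cannot be told apart.

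Serpins are proteins of a common fold that trap a target protease. The protease cuts an exposed stretch, the reactive centre loop, and the serpin then changes shape and holds the enzyme in an inactive complex. The clade B serpins lack a classical signal peptide and act mainly inside cells, many of them in stratified epithelia, whereas the secreted clades act in blood plasma and the extracellular matrix. Spink genes encode Kazal-type inhibitors, small secreted proteins that block the active site of trypsin-like and chymotrypsin-like enzymes, among them the kallikreins that cut the junctions between cornified cells during shedding of the epidermis.

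At an adjusted p below 0.05 by the quasi-likelihood test of edgeR, Spink7, Serpinb2 and Serpinb5 rose and Serpina1e and Serpinb13 fell in the libraries labelled KO, and the other 30 members did not pass. These 3 of 35 members called higher stand beside 4.38% of all genes tested, and the 2 called lower beside 2.09%. The log2 fold changes of the members ran from -1.45 for Serpinb13 to 2.25 for Spink7, with a median of 0.05 against -0.02 over all genes tested. For 4 members all KO libraries lay above all WT libraries (13.5% of all genes did so), for 6 they lay below (18.1% of all genes), and for 25 the genotypes overlapped. edgeR's exact test called 8 members higher and 5 lower (7.76% and 7.15% of all genes), DESeq2 called 8 and 4 (9.5% and 7.61%), and 8 and 4 had a quasi-likelihood adjusted p under 0.1 (8.32% and 8.53%). An unadjusted quasi-likelihood p under 0.05 was reached by 15 members, 9 of them higher and 6 lower. Over all 15009 genes tested, 4439 reached it, 2031 of them higher and 2408 lower. The counts changed with the library left out. Without KO3, 10 members were called higher and 6 lower, beside 16.9% and 16.2% of all genes. The higher and lower counts were 1 and 0 without WT1, 3 and 1 without WT2, 0 and 0 without WT3, 1 and 1 without KO1, and 1 and 0 without KO2. The share of all genes was worked out only for the fit without KO3. For the other fits, a change among the members cannot be told apart from a general loss of calls with fewer libraries.

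**Figure D1:**
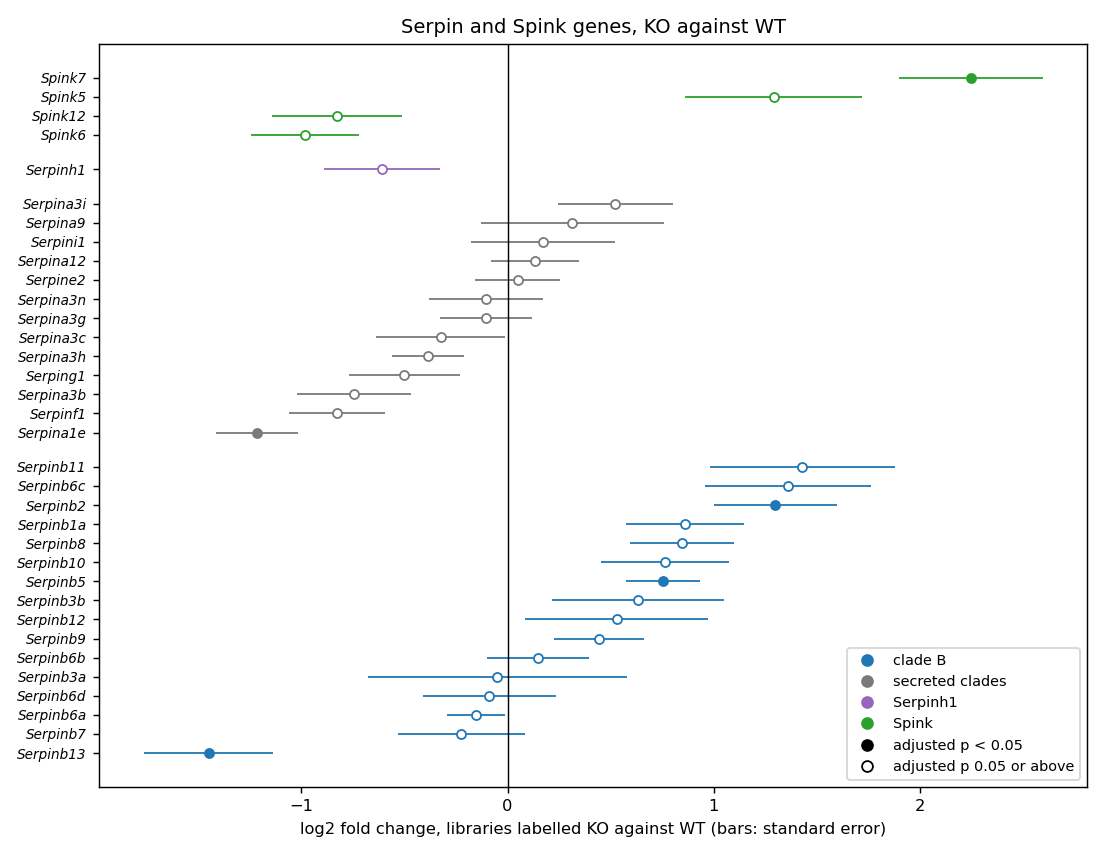
Log2 fold change of 34 of the 35 Serpin and Spink genes in libraries labelled KO against WT (x axis; bars show the standard error of the fit over 3 libraries each), grouped by class along the y axis. Filled points mark an adjusted p under 0.05: Spink7 at 2.25 is the highest of them and Serpinb13 at -1.45 the lowest, and the clade B genes spread to the right of 0 more than the secreted clades do (medians 0.58 and -0.10).

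The clade B genes of chromosome 1 form a cluster of serpin genes expressed in squamous epithelium. Of the 10 members there, Serpinb2 and Serpinb5 rose and Serpinb13 fell, and 7 of the 10 log2 fold changes were above 0 (48% over all genes), with a median of 0.69. Per kb of exon the most abundant was Serpinb5, at a mean of 154 RPKM (CPM divided by the exon length in kb) over the 6 libraries, followed by Serpinb12 at 77.8 RPKM and Serpinb3a at 46.1 RPKM.

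Serpinb5 (maspin, chromosome 1, 106861173 to 106883348 of GRCm38, plus strand) is an epithelial serpin without known inhibitory action on serine proteases, best known as a suppressor of tumour cell invasion. It had 246, 361 and 336 CPM in WT1 to WT3 and 580, 543 and 468 CPM in KO1 to KO3. The lowest KO library thus lay above the highest WT library. Serpinb5 rose from 314 ± 60.2 to 530 ± 56.9 CPM (SD, n = 3 each), 1.69-fold (log2 fold change 0.76, standard error 0.18, quasi-likelihood adjusted p = 0.0482). This call was close to the threshold: it was lost in the fit without any one of WT1 (adjusted p = 0.159), WT2 (0.062), WT3 (0.141), KO1 (0.129) or KO2 (0.167), and the adjusted p was 0.00882 without KO3. Across these fits the log2 fold change stayed between 0.60 and 0.93.

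Serpinb2 (chromosome 1, 107511423 to 107535478, plus strand), an inhibitor of urokinase and tissue plasminogen activator that keratinocytes make as they cornify, had 43.8, 79.9 and 41.2 CPM in the WT libraries. The KO libraries had 169, 139 and 97.9 CPM, each above the highest WT value. Serpinb2 rose 2.46-fold, from 55.0 ± 21.6 to 135 ± 35.9 CPM (SD, n = 3 each; log2 fold change 1.30, standard error 0.30, quasi-likelihood adjusted p = 0.0433). The call was lost without WT1 (adjusted p = 0.170), WT3 (0.152), KO1 (0.120) or KO2 (0.153), while the log2 fold change stayed between 1.13 and 1.73. Serpinb2 overlaps its neighbour Serpinb10 on the same strand, and 7.52% of the 100-base windows of its transcripts occur in Serpinb10 too.

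Serpinb13 (headpin, chromosome 1, 106980984 to 107001195, plus strand) is an inhibitor of the lysosomal cysteine proteases cathepsin K and cathepsin L. It had 6.28, 9.35 and 5.58 CPM in the WT libraries and 3.22, 2.93 and 1.60 CPM in the KO libraries, again without overlap. It fell 2.73-fold, from 7.07 ± 2.01 to 2.58 ± 0.864 CPM (SD, n = 3 each; log2 fold change -1.45, standard error 0.31, quasi-likelihood adjusted p = 0.0362), and was the sole clade B member called lower. The adjusted p was 0.00896 without KO3 and 0.0717 to 0.150 without any one other library, so that the call was lost without WT1, WT2, WT3, KO1 or KO2. Across these fits the log2 fold change stayed between -1.60 and -1.14.

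**Figure D2:**
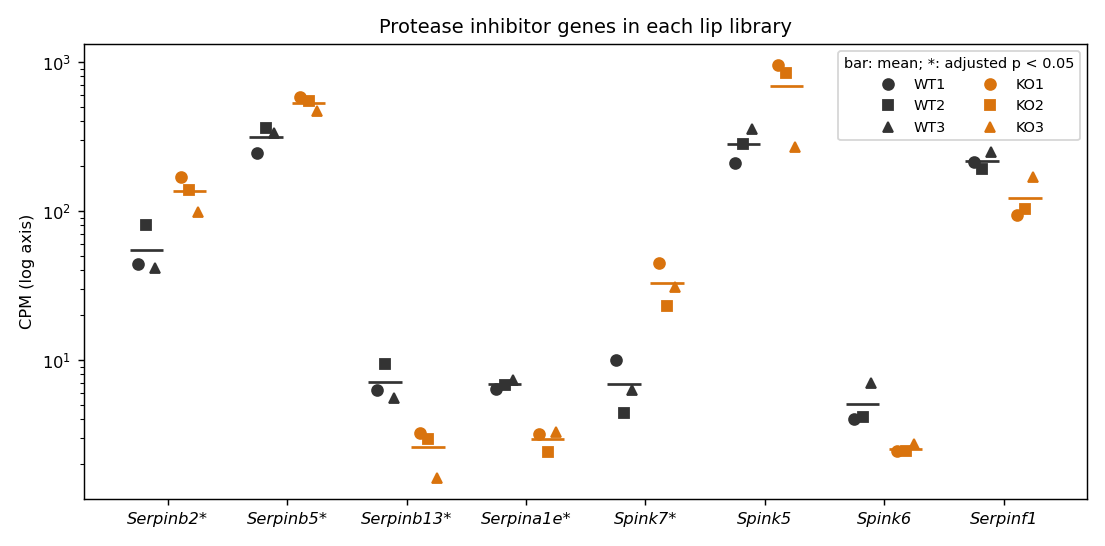
CPM on a log axis in each of the 6 libraries (black, WT; orange, KO; circles, squares and triangles mark replicates 1, 2 and 3, and bars the mean) for the 5 called members, starred, and for Spink5, Spink6 and Serpinf1. In 7 of the 8 genes shown, 5 of them chosen because they were called, the genotypes do not overlap. Among all 35 members they overlap in 25, and over all genes 13.5% lie apart higher and 18.1% lower. In Spink5 KO3 lies at 270 CPM among the WT libraries while KO1 and KO2 lie at 959 and 845 CPM.

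The other genes of this cluster did not pass the quasi-likelihood test. Serpinb12, an inhibitor of trypsin-like enzymes, had 193, 195 and 88.5 CPM in the WT libraries and 364, 218 and 107 CPM in the KO libraries (log2 fold change 0.53, adjusted p = 0.445 by the quasi-likelihood test), and its KO3 value lay between those of WT3 and WT1. Serpinb8, which inhibits furin, had 66.0, 86.4 and 70.0 CPM in WT and 169, 148 and 84.1 CPM in KO (0.85, quasi-likelihood adjusted p = 0.0800). Serpinb11 had 15.1, 15.4 and 10.9 CPM in WT and 61.1, 36.3 and 14.3 CPM in KO (1.43, quasi-likelihood adjusted p = 0.0893). In both genes KO1 and KO2 lay above every WT library and KO3 within the WT range. edgeR's exact test and DESeq2 called both higher, with adjusted p-values of 0.0144 and 0.0150 for Serpinb8 and of 0.00367 and 0.00935 for Serpinb11. Serpinb10 (0.76), Serpinb3b (0.63), Serpinb3a (-0.05) and Serpinb7 (-0.22), the last a gene in which loss-of-function variants cause a palmoplantar keratoderma, had quasi-likelihood adjusted p-values of 0.148 to 0.964. Serpinb10 is annotated as a polymorphic pseudogene.

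The libraries of 1 genotype moved together across this cluster. KO1 was the highest KO library and KO3 the lowest in each of the 10 genes, including Serpinb13, which fell, and WT2 was the highest WT library in 9 of the 10. Over all genes tested, KO1 was the highest KO library in 33.4%, KO3 the lowest in 41.8% and WT2 the highest WT library in 40.3%. The 10 genes lie within 1 cluster and were measured in the same libraries, so they are not separate observations of these mice. The summed CPM of the 10 suprabasal keratinocyte markers, none of which was at 0, followed the same order. It was 45432 in KO1, 38869 in KO2 and 29702 in KO3, against 20919 to 26355 in the WT libraries. Of the 10 markers, 1 was called higher and 1 lower, so the sum does not stand for each of them. The 8 wound keratinocyte markers summed to 9653, 7460 and 6099 CPM in KO1, KO2 and KO3, the same KO order. In WT1 to WT3 they summed to 5700, 3931 and 4336 CPM, so that WT1 and not WT2 was the highest. Of these 8 markers, 2 were called higher and 0 lower (4.38% and 2.09% of all genes). The part of these sums in the differences was not tested.

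RefSeq promoter windows, from 250 bases before to 50 bases after a transcript start (GRCm38.p6), were listed for 25 of the 35 members, and 9 of the 10 chromosome 1 genes were among them. The letters TGANTCA, which hold the AP-1 consensus TGAGTCA and its near relative TGAATCA, occurred on either strand in a window of 7 of these 9 genes (Serpinb2, Serpinb5, Serpinb7, Serpinb8, Serpinb10, Serpinb11 and Serpinb12, but not Serpinb3a or Serpinb3b). They occurred in 0 of 5 clade B genes of chromosome 13, in 0 of 10 secreted serpins and in 7.81% of 32851 promoter windows, or 8.97% of genes. The stricter consensus TGAGTCA was found in Serpinb7 and Serpinb8, in no other of the 25 members with a window, and in 5.2% of all windows. The stretches before the start are shown for 6 of the 7 genes, because the letters recur in most of the cluster's windows, each with TGANTCA in capitals (5′ to 3′ on the plus strand, GRCm38.p6, without bases of annotated exons):
Serpinb5, chr1:106861025-106861172: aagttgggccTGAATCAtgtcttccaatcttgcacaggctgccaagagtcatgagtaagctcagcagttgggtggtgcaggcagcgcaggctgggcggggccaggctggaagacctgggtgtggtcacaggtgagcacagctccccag
Serpinb12, chr1:106934299-106934448: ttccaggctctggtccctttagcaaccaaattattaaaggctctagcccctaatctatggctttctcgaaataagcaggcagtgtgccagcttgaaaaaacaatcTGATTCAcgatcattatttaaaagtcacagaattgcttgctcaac
Serpinb7, chr1:107422539-107422688: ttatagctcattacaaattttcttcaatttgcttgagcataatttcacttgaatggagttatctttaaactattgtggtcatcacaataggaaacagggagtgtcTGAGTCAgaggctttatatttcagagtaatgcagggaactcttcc
Serpinb2, chr1:107511273-107511422: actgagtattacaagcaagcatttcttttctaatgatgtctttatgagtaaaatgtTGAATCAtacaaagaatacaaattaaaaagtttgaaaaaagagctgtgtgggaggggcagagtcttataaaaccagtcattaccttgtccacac
Serpinb10, chr1:107528853-107529002: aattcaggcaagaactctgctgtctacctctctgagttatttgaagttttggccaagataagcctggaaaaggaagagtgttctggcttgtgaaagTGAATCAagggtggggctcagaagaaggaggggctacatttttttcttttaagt
Serpinb8, chr1:107589856-107590005: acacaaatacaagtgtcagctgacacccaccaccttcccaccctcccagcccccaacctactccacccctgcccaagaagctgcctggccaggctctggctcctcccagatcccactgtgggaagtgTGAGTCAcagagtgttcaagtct
The capitals begin 140 bases before the start in Serpinb5, 94 in Serpinb2, 54 in Serpinb10, 45 in both Serpinb12 and Serpinb7 and 23 in Serpinb8. Genes with these letters had log2 fold changes of -0.22 (Serpinb7) to 1.43 (Serpinb11), and the 2 genes with the strict consensus were at -0.22 and 0.85. A match of letters is no measurement of binding. Of the other letters searched on both strands, the TATA box letters TATAAA occurred in 5 of the 9 chromosome 1 genes (13.6% of all windows), and GGATTA, the core bound by bicoid-type homeodomains and by GTF2IRD1, in none of these 9 and in 1 of the 5 chromosome 13 genes, Serpinb6d (7.06% of all windows).

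**Figure D3:**
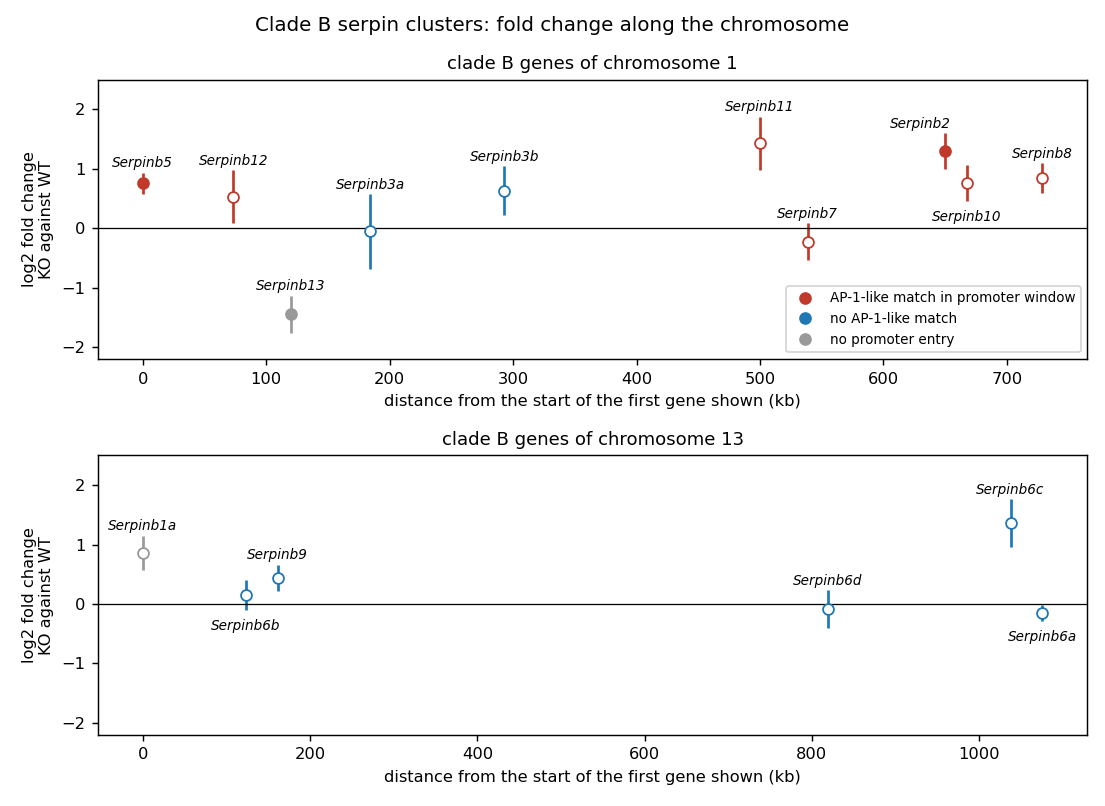
Log2 fold change (y axis; bars show the standard error) of the clade B genes along chromosome 1 (top) and chromosome 13 (bottom), by distance of each gene from the first one shown, in kb. Filled points mark an adjusted p under 0.05, and colour marks whether the promoter window holds TGANTCA: the 7 matches all lie on chromosome 1, with values of -0.22 to 1.43.

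The Serpinb3 genes, mouse counterparts of the squamous cell carcinoma antigens, are near copies of each other. The coding sequences of Serpinb3a and Serpinb3b were 93% identical, those of Serpinb3a and Serpinb3c 91.5% and those of Serpinb3b and Serpinb3c 93.4%. The loop-coding stretches, each within exon 8 of 8 on the minus strand of chromosome 1 (GRCm38, GENCODE transcripts, 5′ to 3′), are shown because reads are told apart by such differences, with bases that differ from Serpinb3a in capitals:
Serpinb3a, chr1:107046103-107046174: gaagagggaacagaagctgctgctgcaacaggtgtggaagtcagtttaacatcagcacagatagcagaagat
Serpinb3b, chr1:107154456-107154527: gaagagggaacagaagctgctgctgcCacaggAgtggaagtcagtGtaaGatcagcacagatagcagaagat
Serpinb3c, chr1:107271716-107271784: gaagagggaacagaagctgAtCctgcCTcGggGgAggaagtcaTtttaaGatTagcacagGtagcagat
Serpinb3b differed from Serpinb3a at 4 bases of this stretch and Serpinb3c at 14, counting 3 bases it lacks. Of the 100-base windows of the transcripts, 0 of Serpinb3a's and 0.515% of Serpinb3b's occur in another gene of the 2 families.

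Serpinb3a varied more among mice than between genotypes. It had 122, 75.5 and 31.9 CPM in WT1 to WT3 and 128, 73.0 and 21.4 CPM in KO1 to KO3 (log2 fold change -0.05, standard error 0.63, quasi-likelihood adjusted p = 0.964), and its coefficients of variation, 58.9% in WT and 71.8% in KO, were the largest of all clade B members. Serpinb3b was even in the WT libraries (32.6, 36.0 and 30.3 CPM) and spread in the KO libraries (84.5, 48.1 and 20.8 CPM), with KO3 below every WT value (0.63, quasi-likelihood adjusted p = 0.333). Serpinb3c stayed under the filter with 274, 59 and 8 counts in WT1 to WT3 and 19, 16 and 3 in KO1 to KO3, so that WT1 alone held most of its reads. Added up over the Serpinb3 genes, the log2 fold change was 0.14 (quasi-likelihood adjusted p = 0.877). Serpinb3b and Serpinb3c overlap on the same strand in the annotation, and how counting shared their reads is not given in the sources used here.

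**Figure D4:**
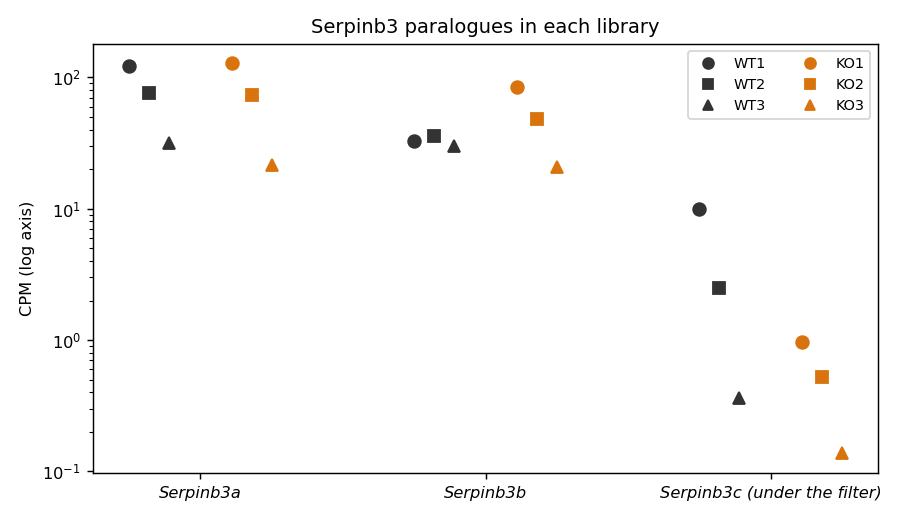
CPM on a log axis of Serpinb3a, Serpinb3b and Serpinb3c in each library (black, WT; orange, KO; circles, squares and triangles mark replicates 1, 2 and 3). Serpinb3a spans 21.4 to 128 CPM within the KO libraries and 31.9 to 122 CPM within the WT libraries, and Serpinb3c is highest in WT1.

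The clade B genes of chromosome 13 include inhibitors of leukocyte proteases that epithelial cells also make. None of the 6 passed the quasi-likelihood test. An unadjusted p under 0.05 was reached by 2 of them, Serpinb1a and Serpinb6c, beside 4439 of the 15009 genes tested. edgeR's exact test and DESeq2 each called these 2 higher (7.76% and 9.5% of all genes). The median log2 fold change of the 6 was 0.30, with 4 values above and 2 below 0. Serpinb6d was the most abundant member of either family per kb of exon, at 286 RPKM. It had 264, 614 and 416 CPM in WT and 434, 506 and 279 CPM in KO (-0.09, quasi-likelihood adjusted p = 0.875), so that WT2 was the highest library and WT1 the lowest. Serpinb6a, an inhibitor of cathepsin G and trypsin-like enzymes that overlaps Nqo2, Ripk1 and 1110046J04Rik on the opposite strand, had 121, 141 and 111 CPM in WT and 122, 109 and 105 CPM in KO (-0.15, quasi-likelihood adjusted p = 0.483). Serpinb1a, which inhibits neutrophil elastase and cathepsin G, had 21.8, 39.2 and 21.4 CPM in WT and 60.3, 53.8 and 35.7 CPM in KO (0.86, quasi-likelihood adjusted p = 0.0997). Here KO1 and KO2 exceeded all WT libraries and KO3 did not exceed WT2. Serpinb6c (1.36, quasi-likelihood adjusted p = 0.0801) rested on low levels of 1.34 to 5.29 CPM. Serpinb9, the inhibitor of granzyme B, had 2.98 to 4.29 CPM in WT and 4.16 to 5.56 CPM in KO (0.44, quasi-likelihood adjusted p = 0.212), and Serpinb6b 1.35 to 2.08 CPM over the 6 libraries (0.15, quasi-likelihood adjusted p = 0.712).

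Among the 14 secreted serpins, Serpina1e fell and no member rose in the quasi-likelihood test (0 with an unadjusted p under 0.05 and a higher value, and 0 called higher by edgeR's exact test or by DESeq2). On the lower side 3 had an unadjusted p under 0.05, beside 2408 of the 15009 genes tested. The exact test called 3 lower and DESeq2 2 (7.15% and 7.61% of all genes). The median log2 fold change of the 14 was -0.10, with 5 values above and 9 below 0. The most abundant per kb of exon were Serping1 at 107 RPKM, Serpinf1 at 71.8 RPKM and Serpina12 at 47.4 RPKM.

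Serpina1e (chromosome 12, 103946931 to 103958975, minus strand) belongs to the alpha-1 antitrypsin genes, which are known above all as products of the liver. It had 6.39, 6.80 and 7.33 CPM in the WT libraries and 3.17, 2.40 and 3.29 CPM in the KO libraries. The genotypes were apart and the spread within each was small. Serpina1e fell 2.32-fold, from 6.84 ± 0.473 to 2.95 ± 0.484 CPM (SD, n = 3 each; log2 fold change -1.22, standard error 0.20, quasi-likelihood adjusted p = 0.0120), and the call was lost without WT1 (adjusted p = 0.0507), WT3 (0.0643) or KO2 (0.0955). Its coding sequence is 96.3% to 96.5% identical to those of Serpina1a to Serpina1d, and 14.4% of its 100-base windows occur in them. Added up over these 5 genes the log2 fold change was -1.16 (quasi-likelihood adjusted p = 0.0118). The 4 hepatocyte markers in the table summed to 0.563 to 1.10 CPM per library and none of them reached the filter.

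Serping1, Serpinf1 and, outside the secreted clades, Serpinh1 had their lowest values in KO1 and KO2. Serping1, the C1 inhibitor of the complement and contact systems, had 275, 259 and 338 CPM in WT and 156, 157 and 303 CPM in KO (-0.50, quasi-likelihood adjusted p = 0.248). Serpinf1, the anti-angiogenic pigment epithelium-derived factor, had 211, 190 and 249 CPM in WT and 94.3, 103 and 169 CPM in KO (-0.83, quasi-likelihood adjusted p = 0.0734). In Serpinf1 the genotypes did not overlap and the exact test and DESeq2 called it lower (adjusted p = 0.0133 and 0.0180), while in Serping1 KO3 lay among the WT libraries. Serpinh1, the collagen chaperone of the endoplasmic reticulum, gave 228, 179 and 287 CPM in WT and 107, 131 and 218 CPM in KO (-0.61, quasi-likelihood adjusted p = 0.189). Without KO3 all 3 were called lower (quasi-likelihood adjusted p of 0.00396, 0.00162 and 0.00842 in the order given), beside 16.2% of all genes. No other fit with a library left out called any of them. Without KO1 or KO2 their quasi-likelihood adjusted p was 0.226 to 0.625. The 7 dermal fibroblast markers, none at 0, summed to 6402 to 8387 CPM in WT and to 2774, 3547 and 6749 CPM in KO1, KO2 and KO3, and their part in these values was not tested.

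Serpina12 (vaspin, an adipokine also made in skin) had 163, 183 and 154 CPM in WT and 234, 185 and 129 CPM in KO (0.13, quasi-likelihood adjusted p = 0.698), with KO values on both sides of the WT range. The adipocyte markers summed to 91.2 to 138 CPM in WT and 66.0 to 70.4 CPM in KO. The protease nexin gene Serpine2 had 42.2 to 53.7 CPM in WT and 39.9 to 65.5 CPM in KO (0.05, quasi-likelihood adjusted p = 0.892). Serpina9 (0.31), known from germinal centre B cells, and the neuroserpin gene Serpini1 (0.17) had adjusted p-values of 0.657 and 0.765 in the same test. The 6 Serpina3 genes, relatives of antichymotrypsin, had log2 fold changes from -0.75 (Serpina3b) to 0.52 (Serpina3i), with 1 above and 5 below 0. None was called by the quasi-likelihood test or by DESeq2, 1 (Serpina3b) had an unadjusted p under 0.05 and was called lower by the exact test, and added up over all 12 Serpina3 symbols in the table the log2 fold change was -0.46 (quasi-likelihood adjusted p = 0.134). Serpina3h is annotated as a transcribed pseudogene.

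Clade B and the secreted clades were then set side by side in each library, as the median over genes of log2 CPM minus the WT mean. For clade B this median was -0.19, 0.33 and -0.23 in WT1 to WT3 and 1.06, 0.57 and 0.09 in KO1 to KO3. For the secreted clades it was -0.07, 0.13 and -0.03 in WT and -0.21, -0.48 and -0.03 in KO, and over all genes it stayed between -0.05 and 0.01. Clade B minus secreted was 1.28 in KO1 and 1.05 in KO2, above the WT values of -0.12, 0.20 and -0.20, but 0.12 in KO3, below WT2, so that the genotypes overlapped. By fitted fold changes the clade B median was 0.58 with all libraries, and 0.37 without KO1, 0.68 without KO2 and 0.86 without KO3. For the secreted clades the fitted median of -0.10 became -0.28 without KO3 and 0.11, on the other side of 0, without KO2.

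With all libraries 2 of 16 clade B genes were called higher and 1 lower, against 0 and 1 of 14 secreted serpins, beside 4.38% and 2.09% of all genes. Without KO3 the counts were 8 and 1 against 0 and 3, beside 16.9% and 16.2% of all genes. KO3 lay inside the WT range in 9 of the 16 clade B genes (56.2%) and KO1 and KO2 in 4 each (25%). For the secreted clades the shares were 42.9% in KO3, 21.4% in KO1 and 28.6% in KO2. Over all genes tested they were 39.9%, 23.9% and 26.7% in the same order. Clade B genes also varied more within WT, with a median coefficient of variation of 26.0% against 13.9% for the secreted clades. Within KO these medians were closer, at 31.4% and 25.6%. WT2 was the highest WT library in 15 of 16 clade B genes and in 8 of 14 secreted serpins, and KO3 the lowest KO library in 15 of 16 and in 3 of 14. Members of a class share libraries and, in part, gene clusters, and no test of the difference between classes was run.

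**Figure D5:**
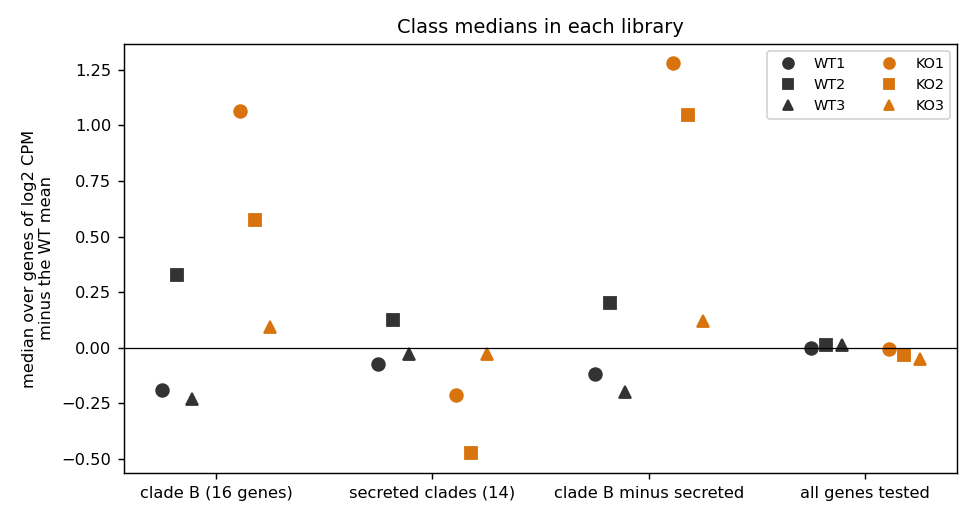
Median over genes of log2 CPM minus the WT mean (y axis) in each library (black, WT; orange, KO; circles, squares and triangles mark replicates 1, 2 and 3), for clade B, the secreted clades, the difference between them and all genes tested. KO1 and KO2 stand at 1.28 and 1.05 for the difference, and KO3 at 0.12 among the WT libraries.

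The 4 Spink genes, all on chromosome 18, split by direction. Spink7 had the largest log2 fold change of all members. It had 10.02, 4.42 and 6.30 CPM in WT1 to WT3 and 45.0, 22.9 and 30.9 CPM in KO1 to KO3, so that the lowest KO library was above the highest WT library. Spink7, an inhibitor best known from the epithelium of the oesophagus, rose 4.75-fold, from 6.91 ± 2.85 to 32.9 ± 11.2 CPM (SD, n = 3 each; log2 fold change 2.25, standard error 0.35, quasi-likelihood adjusted p = 0.00884). It was called in 14 of 15 alternative fits and was lost without WT3 (adjusted p = 0.0532). Spink7 overlaps Spink10, which had at most 5 counts in any library, on the opposite strand.

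Spink5 encodes the multi-domain inhibitor LEKTI, which blocks the kallikreins of the cornified layer and is lost in Netherton syndrome. It was the most abundant Spink gene at 102 RPKM and had 210, 283 and 354 CPM in WT and 959, 845 and 270 CPM in KO. KO1 and KO2 were above all WT libraries and KO3 was below WT2. The log2 fold change was 1.29 (standard error 0.43, quasi-likelihood adjusted p = 0.0998), and 1.68 without KO3 (adjusted p = 0.00114). No other fit with a library left out called Spink5. With all libraries the exact test and DESeq2 called Spink5 higher (adjusted p = 0.00758 and 0.0146). Spink6, another kallikrein inhibitor of skin, had 3.99, 4.12 and 6.93 CPM in WT and 2.46, 2.43 and 2.70 CPM in KO (-0.98, quasi-likelihood adjusted p = 0.0648), without overlap, and was called lower by the exact test and DESeq2 (adjusted p = 0.0169 and 0.0183). Spink12 had 11.5, 6.33 and 9.40 CPM in WT and 7.37, 4.34 and 3.70 CPM in KO (-0.83, quasi-likelihood adjusted p = 0.131). KO1 alone lay within the WT range.

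Proteases of several classes, not all of them targets of serpins or Spink inhibitors, were counted from a list of 65, of which 50 were tested. In the quasi-likelihood test 7 rose and 0 fell, beside 4.38% and 2.09% of all genes, with a median log2 fold change of 0.15. The caspases Casp14 and Casp4 were among the 7. An unadjusted p under 0.05 was reached by 11 higher and 7 lower, beside 2031 and 2408 of the 15009 genes tested. edgeR's exact test called 9 higher and 4 lower (7.76% and 7.15% of all genes), and DESeq2 called 9 higher and 2 lower (9.5% and 7.61%). The 3 with the lowest p were kallikreins of the epidermis. Klk8 rose from 174, 151 and 166 CPM to 508, 416 and 372 CPM (1.40, adjusted p = 0.00174 by the quasi-likelihood test). Klk5 rose from 110, 116 and 126 CPM to 284, 254 and 184 CPM (1.03, quasi-likelihood adjusted p = 0.0143), and Klk7 from 472, 580 and 423 CPM to 1469, 1177 and 789 CPM (1.22, quasi-likelihood adjusted p = 0.0285). In KO3 all 3 kallikreins were above every WT library, whereas Spink5 was not. The kallikreins were chosen by lowest p and Spink5 by abundance, so this contrast depends on the choice and is no test of balance.

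Of 61 other protease inhibitors listed, 32 were tested, and 2 rose and 2 fell, beside the same 4.38% and 2.09% of all genes, with a median of -0.27. The exact test and DESeq2 each called 4 higher and 8 lower (7.76% and 7.15% of all genes by the exact test, 9.5% and 7.61% by DESeq2). Of the 32, 5 higher and 12 lower had an unadjusted quasi-likelihood p under 0.05, beside 2031 and 2408 of the 15009 genes tested. Stfa3, a stefin that inhibits cysteine cathepsins, rose from 4.68, 3.83 and 4.27 CPM to 30.7, 14.3 and 18.1 CPM (2.30, quasi-likelihood adjusted p = 0.00311). BC100530, a further stefin gene, rose by 3.11 on the log2 scale (quasi-likelihood adjusted p = 0.0236). The metalloprotease inhibitors Reck (-0.83, quasi-likelihood adjusted p = 0.0364) and Timp3 (-0.84, quasi-likelihood adjusted p = 0.0371) fell. A list drawn up around the plasminogen system, in which Serpinb2 acts, had 11 tested genes. The 1 gene called was F3, the gene of tissue factor, which belongs to coagulation and not to plasminogen activation. F3 fell from 54.5, 55.5 and 51.9 CPM to 19.1, 18.9 and 18.8 CPM (-1.51, quasi-likelihood adjusted p = 0.000252). None of the 11 rose in that test, although the exact test called 1 and DESeq2 2 of them higher. An unadjusted p under 0.05 was reached by 2 higher and 4 lower, beside 2031 and 2408 of the 15009 genes tested.

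The other 37 Serpin and Spink symbols stayed under the filter. Of these, 25 had at most 10 counts in every library, and 3 (Serpinb3c, Serpina3j and Serpina3e-ps) had more than 100 counts in total. Serpina3j had 15, 31 and 45 counts in WT1 to WT3 and 2, 19 and 12 in KO1 to KO3. The antithrombin gene Serpinc1 and the heparin cofactor gene Serpind1, both liver products of the plasma, had 8 to 20 counts per library, which is under 1 CPM in each.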

How the data were processed

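The libraries came from the top lip of 3 KO and 3 WT mice. The authors mapped 100-base paired-end reads to GRCm38 with TopHat2 2.0.8 and Bowtie2 2.1.0, and the deposited values are raw HTSeq counts of uniquely mapped reads per gene, without normalization. Strand setting and counting mode are not given in the sources used here. Total counts per library set the precision at low CPM.

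From these counts, genes at 1 CPM or more in 3 or more libraries were scaled by TMM and tested with edgeR 4.0.16 (glmQLFit with legacy=FALSE, glmQLFTest; R 4.3.3), with Benjamini-Hochberg adjustment over 15009 genes and a threshold of 0.05. Standard errors are the log2 fold change over the square root of F. The fit was tested on simulated data. CPM used TMM-scaled library sizes, RPKM the exons of GENCODE (release M21), and log2 CPM a prior count of 2. Alternatives were edgeR's exact test, DESeq2 1.42.0, limma-voom (limma 3.58.1), the older fit, other scalings and filters, a replicate block, summed paralogues and each library left out. Values by library are given for called members, the 3 most abundant per kb in each class, Serpinh1 and the 3 lowest p of each list. Other genes given so (Serpinb8, Serpinb11, Serpinb3b, Spink6 and Serpina3j among them) were chosen after their values were seen, as were the promoter letters and the AP-1 consensus. Of the secreted serpins, 1 is counted with its class and not reported here singly. Members and lists were chosen with earlier results of these data known. Sequences came from RefSeq promoter windows and GENCODE transcripts (Biopython 1.88). Figures used matplotlib 3.10.9 and Python 3.11.15.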

Additional observations from a re-analysis of the deposited data

How the results depend on the processing

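The number of calls changed with the test and with the library left out. A fit with a library left out holds fewer mice, and lower power was not separated from the weight of a single mouse. Against 3 members called higher and 2 lower, edgeR's exact test gave 8 and 5, DESeq2 gave 8 and 4, an adjusted p under 0.1 gave 8 and 4, and library size alone gave 1 higher. With each library left out in turn the counts lay between 0 and 10 higher and between 0 and 6 lower, both highest without KO3 and both 0 without WT3. All 5 called members kept their sign in each alternative, but this is no test of their direction. They were chosen by their call, and the genotypes do not overlap in any of the 5. Leaving out a library could therefore not reverse a sign. The secreted median of -0.10 lay between -0.28 and 0.11 with a library left out, while the clade B median stayed above 0, between 0.37 and 0.86, and the Spink median between 0.07 and 0.52. Scaling by DESeq2's size factors or by library size alone gave clade B medians of 0.61 and 0.55 and secreted medians of -0.08 and -0.12.

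For the 7 proteases called higher, leaving out a library gave 1 to 17. For the 0 called lower, the exact test gave 4, DESeq2 2, no filter 1, an adjusted p under 0.1 gave 4 and left-out libraries 0 to 11. For the other inhibitors, 2 higher became 4 by the exact test, 4 by DESeq2, 6 with no filter, 5 at an adjusted p under 0.1 and 1 to 5 with a library left out, and 2 lower became 8, 8, 1 (replicate block), 8 and 0 to 11 (exact test, DESeq2, block, adjusted p under 0.1 and left-out libraries). The cause was not tested.

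Members near 0 changed sign. Serpinb3a went from -0.05 to 0.14 with its paralogues added. With a library left out, log2 fold changes crossed 0 for Serpina12 (-0.0211 to 0.336), Serpina3g (-0.215 to 0.0317), Serpina3n (-0.44 to 0.19), Serpina9 (-0.0265 to 0.890), Serpinb3a (-0.63 to 0.46), Serpinb6a (-0.235 to 0.00565), Serpinb6d (-0.35 to 0.32), Serpinb7 (-0.420 to 0.0823), Serpine2 (-0.19 to 0.24) and Serpini1 (-0.11 to 0.65).

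The labels give WT and KO replicates the same numbers and state no pairing. The correlations of same-numbered deviations from the group means over genes were -0.19, 0.29 and 0.31, and samples did not all correlate best with their own number. Deviations within a group are tied to each other by the group mean, so these values cannot exclude a pairing. A replicate block gave 2 members higher, without Serpinb5 (adjusted p = 0.0654 by edgeR's quasi-likelihood test), and 3 lower, with Serpinf1 added. Depth limits the low members: a value of 1 CPM rests on few counts, and 3 counts stand for up to 0.154 CPM.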
